A study of Mus musculus with 8 samples.

Results

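The comparison described here is between cells labelled as activated dendritic cells (DCs) from ICAM-1/2 DKO chimeras and from WT chimeras. It uses 4 of the 8 libraries of the study, 2 in each group. Libraries were assigned by the genotype and treatment in their labels, and all genes of the deposited table were considered. Popliteal lymph nodes of chimeric C57BL/6 mice were the source of the cells, which had been sorted by the markers CD45, CD11c and MHC-II. Mice were 16 weeks of age and 8 weeks past the procedure that the labels call BMT, which usually stands for bone marrow transplantation, and each activated mouse had received 10 µg of a monoclonal antibody against CD40 into the footpad. Chimeras labelled WT/WT are called WT and those labelled ICAM-1/2 DKO/WT are called DKO. The sources used here give neither which side of the slash is the donor nor which part of each gene was deleted. The other 4 libraries, 2 WT and 2 DKO, came from mice that received no antibody (resting). They entered the fit to share the estimate of spread and are cited only where the same genotype difference can be looked up in them.

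ICAM-1 and ICAM-2 are adhesion molecules of the immunoglobulin family, and both are ligands of the integrin LFA-1 on T cells and other leukocytes. On antigen-presenting cells they take part in the contact with a T cell called the immune synapse. CD40 is a signalling receptor on DCs, macrophages and B cells, and antibodies that engage it stand in for the CD40 ligand of a helper T cell. A lymph node also holds macrophages in its sinuses and medulla, which take up particles and dying cells and degrade them in lysosomes. Some of these macrophages carry CD11c and MHC-II, the surface markers used in the sort.

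RNA was measured by bulk MARS-seq, in which the 3′ end of each captured molecule is counted once by its unique molecular identifier (UMI). The WT activated libraries held 822287 and 914623 UMIs and the DKO activated libraries 803034 and 471235, so DKO activated replicate 2 was the shallowest of the 4. A floor of 3 UMIs corresponds to 3.67 to 7.16 CPM (counts scaled to a common library size by the TMM method) in these libraries and covers counting error only. Of the 10412 genes listed, 8616 were abundant enough to be tested. Differences are log2 values, DKO minus WT, with their standard error (SE), and a gene is called when its adjusted p in edgeR's quasi-likelihood test is under 0.05. Nothing in the labels says that the libraries came from separate mice, and p-values therefore reflect just the spread among these 8 libraries, which can be technical. Replicate numbers only name libraries.

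Few genes separated the genotypes after activation. edgeR called 15 of 8616 genes, 0.174% of those tested, of which 12 (0.139%) were higher and 3 (0.0348%) lower in DKO, and all 15 differed at least 2-fold. An unadjusted p under 0.05 was reached by 424 genes, 4.92% of those tested, with 262 higher and 162 lower. Genes called higher were the lysozyme gene Lyz2, the apolipoprotein gene Apoe, the complement genes Cfb and C3, the genes of the secreted proteins Igfbp7, Pla2g2d and Htra1, the tetraspanin gene Cd63, Eps8l1, and the chromosome 11 genes Cygb, St6galnac2 and BC018473. Genes called lower were the targeted Icam1, Ifng and Rpl35. DESeq2 called 8 genes on the same counts, and the count ranged from 6 to 36 when 1 library was left out.

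**Figure D1:**
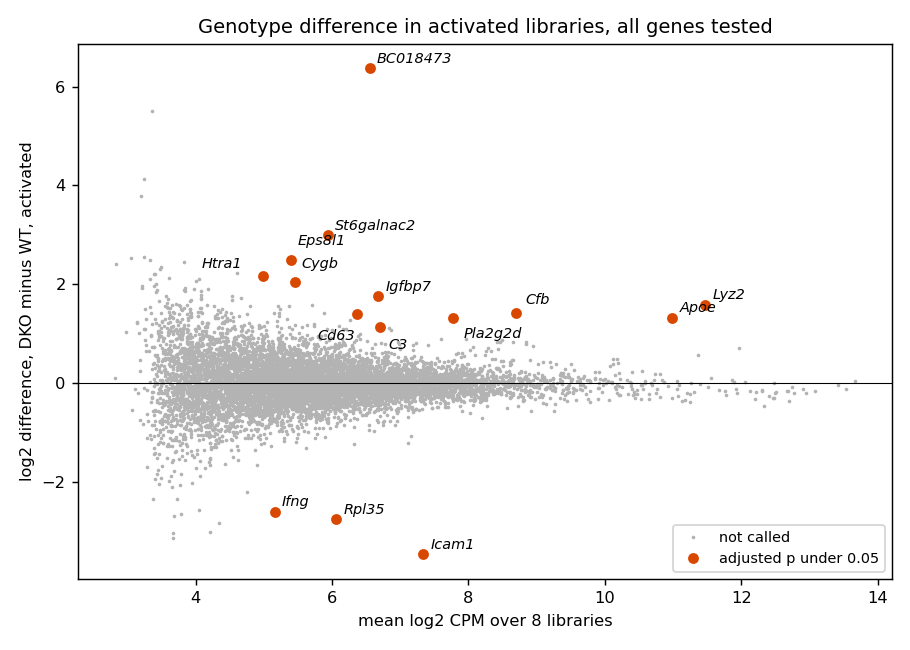
Difference between DKO and WT activated libraries (vertical axis, log2, DKO minus WT) against mean level over all 8 libraries (horizontal axis, log2 CPM) for the 8616 genes tested. Grey points are genes not called and the 15 orange points are genes with an edgeR adjusted p under 0.05, which lie 12 above and 3 below the line at 0.

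Icam1, which the DKO label names as a targeted gene, was low in both DKO activated libraries. It stood at 407 and 432 CPM in the WT activated libraries and at 38.5 and 35.8 CPM in the DKO activated libraries, which correspond to 30 and 15 UMIs. The groups did not overlap, and the difference was −3.48 ± 0.27 (SE), an 11.1-fold lower level with an adjusted p of 2.88e-10. The gene lies on mm10 chromosome 9 from 21015985 to 21028817, plus strand, and GENCODE M21 places an antisense gene over it. UMIs of Icam1 thus remained above the floor in DKO libraries.

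Icam2 did not differ detectably. It stood at 66.5 and 94.1 CPM in WT activated and at 110.5 and 93.1 CPM in DKO activated libraries, and these ranges overlapped. The difference was 0.35 ± 0.28 with a 95% interval from −0.22 to 0.93 (adjusted p = 0.9999). The gene lies on chromosome 11 from 106377656 to 106388075, minus strand. Since the extent of the Icam2 deletion is unknown here, a 3′ tag that lies outside it would check nothing.

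Lyz2 encodes a lysozyme of macrophages and other myeloid cells, and Apoe encodes a lipid carrier that macrophages secrete. Lyz2 stood at 2748 and 2050 CPM in WT activated libraries and at 6477 and 7855 CPM in DKO activated libraries. Apoe stood at 1584 and 1531 CPM in WT activated libraries and at 3419 and 4369 CPM in DKO activated libraries. In both genes the lower DKO library lay above the higher WT library. Lyz2 was 2.99-fold higher in DKO (1.58 ± 0.18 log2, SE, adjusted p = 1.41e-06), and Apoe was 2.50-fold higher (1.32 ± 0.17, adjusted p = 2.69e-05). Lyz2 lies on chromosome 10 from 117277331 to 117282321 and Apoe on chromosome 7 from 19696109 to 19699188, both on the minus strand. Lyz1, the neighbouring paralog of Lyz2, stood at 387 and 308 CPM in WT activated and at 653 and 489 CPM in DKO activated libraries and was not called (0.73 ± 0.22, adjusted p = 0.393). In an alignment of the Lyz1 and Lyz2 transcripts 1211 bases were identical, 92.0% of the longer one, and 286 of their last 300 bases were, so the authors' counting could have split reads between them and the separate values are uncertain.

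RefSeq promoters of build GRCm38.p6, from 250 bases before the gene start to 50 bases after it, were matched for 11 of the 15 called genes. Those of 4 myeloid or lysosomal genes that were higher in DKO are shown, which were picked after the calls were seen. Capitals mark GAGGAA, the core of the motif of the myeloid factor PU.1, or its reverse complement TTCCTC. The windows are chr10:117282223-117282522, minus strand for Lyz2, chr7:19699139-19699438, minus strand for Apoe, chr4:138775485-138775784, plus strand for Pla2g2d and chr10:128909095-128909394, plus strand for Cd63.
Lyz2: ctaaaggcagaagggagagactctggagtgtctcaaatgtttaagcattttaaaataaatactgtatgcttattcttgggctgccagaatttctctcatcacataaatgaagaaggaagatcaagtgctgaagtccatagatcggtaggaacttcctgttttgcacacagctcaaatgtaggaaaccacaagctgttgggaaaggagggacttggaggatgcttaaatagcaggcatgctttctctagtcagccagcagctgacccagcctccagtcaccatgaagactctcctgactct
Apoe: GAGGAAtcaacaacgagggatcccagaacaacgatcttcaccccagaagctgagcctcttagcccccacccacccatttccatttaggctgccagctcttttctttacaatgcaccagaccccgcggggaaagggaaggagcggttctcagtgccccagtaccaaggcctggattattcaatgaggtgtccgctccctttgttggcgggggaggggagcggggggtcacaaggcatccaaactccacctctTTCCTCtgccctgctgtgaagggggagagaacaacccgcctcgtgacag
Pla2g2d: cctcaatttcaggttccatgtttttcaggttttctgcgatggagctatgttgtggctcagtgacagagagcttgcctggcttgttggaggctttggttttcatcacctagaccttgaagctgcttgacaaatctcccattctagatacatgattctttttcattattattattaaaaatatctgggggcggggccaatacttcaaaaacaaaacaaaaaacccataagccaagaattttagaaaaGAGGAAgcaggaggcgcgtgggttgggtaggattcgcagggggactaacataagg
Cd63: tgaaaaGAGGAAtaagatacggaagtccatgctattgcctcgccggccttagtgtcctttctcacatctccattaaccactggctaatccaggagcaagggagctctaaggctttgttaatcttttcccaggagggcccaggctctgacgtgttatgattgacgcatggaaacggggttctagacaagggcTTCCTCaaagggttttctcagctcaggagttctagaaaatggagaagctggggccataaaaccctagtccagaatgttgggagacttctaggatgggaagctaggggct
The core occurred in 6 of the 11 promoters, which were those of Apoe, Pla2g2d, Htra1, Cd63, Eps8l1 and Rpl35. It occurs on either strand in 28.3% of all 27025 RefSeq promoters and in 27.3% of the 6696 promoters of tested genes. The windows of Lyz2, Igfbp7, C3, Icam1 and Ifng did not hold these letters, and of these only that of Lyz2 is shown. Patterns of other factors were also looked for on both strands, none of which contains the PU.1 core. The AP-1 pattern TGANTCA occurred in 0 of the 11 windows, against 4.6% of the promoters of tested genes, and the C/EBP pattern TTGCNNAA in that of C3 alone, against 8.2%. A single NF-kB pattern, given here by name only, occurred in 0 windows against 1.7%. Other spellings of the NF-kB motif were not searched, so this does not show that a window lacks such a motif. An interferon response element pattern occurred in the window of Eps8l1 alone, against 3.4%. A match is a run of letters and not a measured binding site.

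Of the complement genes Cfb and C3 were called higher in the DKO activated libraries. Cfb encodes factor B, which forms the C3 convertase of the alternative pathway, and C3 encodes the protein that this enzyme cleaves. Cfb stood at 508 and 369 CPM in WT activated and at 1187 and 1164 CPM in DKO activated libraries, a 2.68-fold difference (1.42 ± 0.20, adjusted p = 7.42e-05). C3 stood at 124 and 121 CPM in WT activated and at 275 and 258 CPM in DKO activated libraries, a 2.18-fold difference (1.12 ± 0.24, adjusted p = 0.0322). Neither gene's groups overlapped, and the DKO replicates lay close together in both. Cfb overlaps Gm20547, a protein-coding gene on the same strand, so its reads cannot be assigned with certainty. Of 11 tested complement genes 2 were called higher and 0 lower, 6 had an unadjusted p under 0.05, all of them higher in DKO, and the median difference was 0.51. Over all genes tested 3.04% were higher in DKO with such a p and the median was −0.01. The other 4 were C1qa (0.65 ± 0.23), C1qb (0.57 ± 0.23) and C1qc (0.78 ± 0.24), which encode the chains of C1q, and Cfp (0.41 ± 0.19), which encodes properdin. None of these 4 was called. Without DKO activated replicate 2 the genes with an unadjusted p under 0.05 numbered 2, and the median was 0.34; with 1 of the WT activated libraries left out, whichever it was, they numbered 4. C3 lost its call in 5 of 15 alternatives, among them DESeq2 and leaving out any 1 of the 4 activated libraries, with values from 1.07 to 1.17. Cfb lost its call without WT activated replicate 2 (1.21, adjusted p = 0.0855, where the other 14 alternatives ran from an adjusted p of 2.80e-07 upward and kept the call).

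Genes of secreted proteins made up a further group. Igfbp7, which encodes an insulin-like growth factor binding protein, stood at 70.4 and 97.8 CPM in WT activated and at 275 and 296 CPM in DKO activated libraries (1.75 ± 0.25, adjusted p = 7.42e-05). Pla2g2d, a secreted phospholipase gene that lymph node DCs of mice express, stood at 228 and 187 CPM in WT activated and at 411 and 630 CPM in DKO activated libraries (1.31 ± 0.23, adjusted p = 0.00329). Htra1, a secreted serine protease gene, stood at 14.3 and 25.7 CPM in WT activated and at 83.5 and 100.2 CPM in DKO activated libraries (2.17 ± 0.43, adjusted p = 0.0156). In all 3 the libraries of the genotypes did not overlap. Pla2g2d lost its call without WT activated replicate 2 or DKO activated replicate 2, and Htra1 lost it with DESeq2 and without any 1 of the 4 activated libraries. Igfbp7 overlaps Polr2b on the opposite strand and Htra1 overlaps Fgfr2, and since the strand setting of the counting is not given, their reads cannot be assigned with certainty. Polr2b stood at −0.12 ± 0.33.

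Cd63 and Eps8l1 complete the genes called higher outside chromosome 11. Cd63, a tetraspanin gene of late endosomes and lysosomes, stood at 66.5 and 63.6 CPM in WT activated and at 139 and 208 CPM in DKO activated libraries (1.39 ± 0.28, adjusted p = 0.0169). Eps8l1, a relative of the actin regulator gene Eps8, had 10 and 2 UMIs in WT activated and 37 and 16 UMIs in DKO activated libraries. Its groups did not overlap, and the ratio of summed UMIs, scaled for depth, was 5.85 (exact 95% interval of counting error 3.08 to 12.02) with an edgeR adjusted p of 0.0174. Eps8l1 was also called at rest (1.84 ± 0.37, adjusted p = 0.0285). It overlaps the antisense gene Gm15494, and the strand setting of the counting is not given. Cd63 lost its call in 4 alternatives and Eps8l1 in 6 of 15, DESeq2 among them for both. The fitted difference of Eps8l1 was 2.50 ± 0.51 and moved to 4.07 without WT activated replicate 1 and to 1.73 without WT activated replicate 2.

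**Figure D2:**
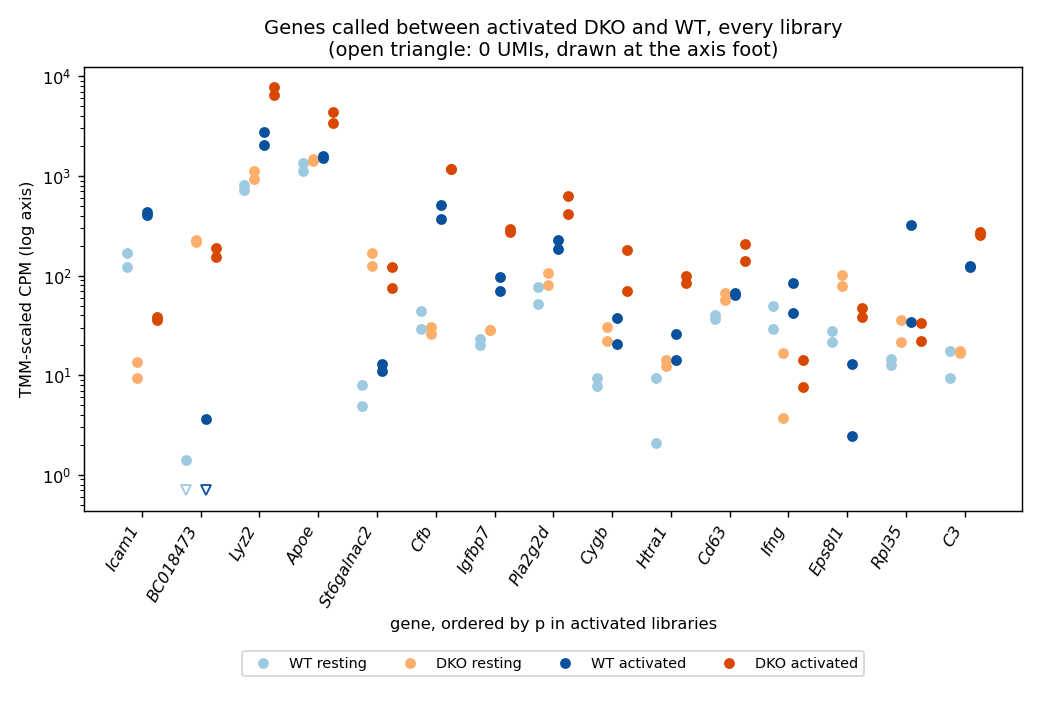
Level of each of the 15 called genes in every library (vertical axis, TMM-scaled CPM, log scale), ordered by p in the activated comparison. Light points are resting and dark points activated libraries, blue for WT and orange for DKO, and an open triangle stands for 0 UMIs. Dark orange points lie above the dark blue ones for 12 genes and below them for Icam1, Ifng and Rpl35, where for Rpl35 the lower WT library is close to the DKO libraries.

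Of the 2 other genes called lower, Ifng was low in both DKO libraries and Rpl35 rested on a single WT library. Ifng, the gene of interferon gamma made by NK cells and T cells, had 32 and 69 UMIs in WT activated libraries and 6 in each DKO activated library. These are 41.7 and 84.4 CPM against 7.71 and 14.3 CPM, and the groups did not overlap. The difference was −2.61 ± 0.53 (adjusted p = 0.0174). The call ended with DESeq2, with limma-voom, and without WT activated replicate 2, DKO activated replicate 1 or DKO activated replicate 2, over values from −3.02 to −2.01. Rpl35, a gene of the large ribosomal subunit, stood at 33.9 and 325 CPM in WT activated and at 21.8 and 33.4 CPM in DKO activated libraries. Its difference was −2.77 ± 0.56 (adjusted p = 0.0174), and −0.34 without WT activated replicate 2. Rpl35 overlaps Wdr38 and Arpc5l on the opposite strand.

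Ifng belongs to the list of NK cell and innate lymphoid cell markers, whose other members were not called. Of 17 tested markers 1 was called lower and 0 higher, and 5 had a positive difference, Gzmb (0.73 ± 0.37) and Prf1 (0.95 ± 0.74) of the cytotoxic granules among them. An unadjusted p under 0.05 was reached by 6, all lower in DKO, where 1.88% of all genes did so, and the median was −0.61. The 6 were Ifng, the granule protein gene Nkg7 (−0.85 ± 0.30), the receptor genes Ncr1 (−2.36 ± 0.95), Klrk1 (−0.93 ± 0.39) and Il2rb (−0.71 ± 0.33), and the chemokine gene Xcl1 (−0.85 ± 0.37). The summed level of the 17 markers was 2089 and 1978 CPM in WT activated and 1342 and 1961 CPM in DKO activated libraries. The groups did not overlap, but the second DKO library was close to WT. The chemokine gene Ccl5, which was also listed as a marker of mature DCs, made up much of this sum. It stood at 1330 and 944 CPM in WT activated and at 874 and 1045 CPM in DKO activated libraries. The lack of overlap of the summed level depends on this gene. Without WT activated replicate 2 the markers with an unadjusted p under 0.05 were 1 lower and 1 higher, with a median of −0.36, and DESeq2 gave 3 lower. They were 4 lower and 3 higher, with a median of −0.79, without DKO activated replicate 1. In bulk samples fewer cells of a type and less RNA per cell cannot be told apart, here as for each marker list that follows.

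The summed level of macrophage and monocyte markers was higher in both DKO activated libraries, with the largest ratio of summed levels among the lists of 10 or more tested members. Their summed level was 7426 and 6618 CPM in the WT activated libraries and 14010 and 18598 CPM in the DKO activated libraries. The mean was 7022 ± 571 in WT and 16304 ± 3244 in DKO (SD, n = 2), a ratio of 2.32. Of 28 markers 22 were in the table and 20 were tested. Only Lyz2 and Apoe were called, both higher in DKO, and 0 were called lower. An unadjusted p under 0.05 was reached by 18 of the 20, all higher in DKO, against 3.04% of all genes, and 19 of the 20 had a positive difference. In 17 of the 20 both DKO libraries lay above both WT libraries, which held for 16.1% of all genes tested. The median was 0.87, against −0.01 over all genes. Without Lyz2 and Apoe the other 18 summed to 3094 and 3037 CPM in WT activated and to 4113 and 6373 CPM in DKO activated libraries.

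Among the markers not called were several that define macrophages. The examples that follow were chosen after their values were seen. Cd68, a lysosomal glycoprotein gene, stood at 80.8 and 56.2 CPM in WT activated and at 140 and 196 CPM in DKO activated libraries (1.27 ± 0.29, adjusted p = 0.0602). Csf1r, the receptor gene for the macrophage growth factor CSF-1, stood at 141 and 99.0 CPM in WT activated and at 202 and 305 CPM in DKO activated libraries (1.06 ± 0.26, adjusted p = 0.142). Siglec1, the sialoadhesin gene of sinus macrophages, stood at 10.4 and 14.7 CPM in WT activated and at 33.4 and 50.1 CPM in DKO activated libraries (1.69 ± 0.61, adjusted p = 0.707). In each of the 3 the genotypes did not overlap. Cd5l, a secreted macrophage protein gene, had the largest difference of the list at 2.23 ± 0.59 (adjusted p = 0.200), with 25.7 and 138 CPM in the DKO libraries against 7.82 and 24.5 CPM in WT. The scavenger receptor gene Marco stood at 310 and 311 CPM in WT activated and at 350 and 814 CPM in DKO activated libraries (0.88 ± 0.26, adjusted p = 0.379). Ly6c2 was the only tested member with a negative difference, at −0.25 ± 0.24. The untested Adgre1, which encodes the macrophage antigen F4/80, had 5 and 0 UMIs in WT activated and 2 and 0 UMIs in DKO activated libraries. Cd14, Cd163, Mertk, Mrc1, Slc40a1 and Vsig4 were not among the 10412 genes listed, so they could not be tested.

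The size of this difference varied between the DKO libraries. Of the 20 markers 19 were higher in DKO activated replicate 2 than in replicate 1, while 50.9% of all genes were, and in WT activated libraries the replicates split 10 to 10. Relative to the WT mean, the summed level was 1.995 in DKO activated replicate 1 and 2.65 in replicate 2. Without DKO activated replicate 2, 7 markers had an unadjusted p under 0.05 on the higher and 1 on the lower side, with a median of 0.61, and Lyz2 and Apoe stayed called. Without DKO activated replicate 1, 17 were higher with such a p and 8 were called, with a median of 1.21. DESeq2 gave 14 with an unadjusted p under 0.05 and called 2.

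**Figure D3:**
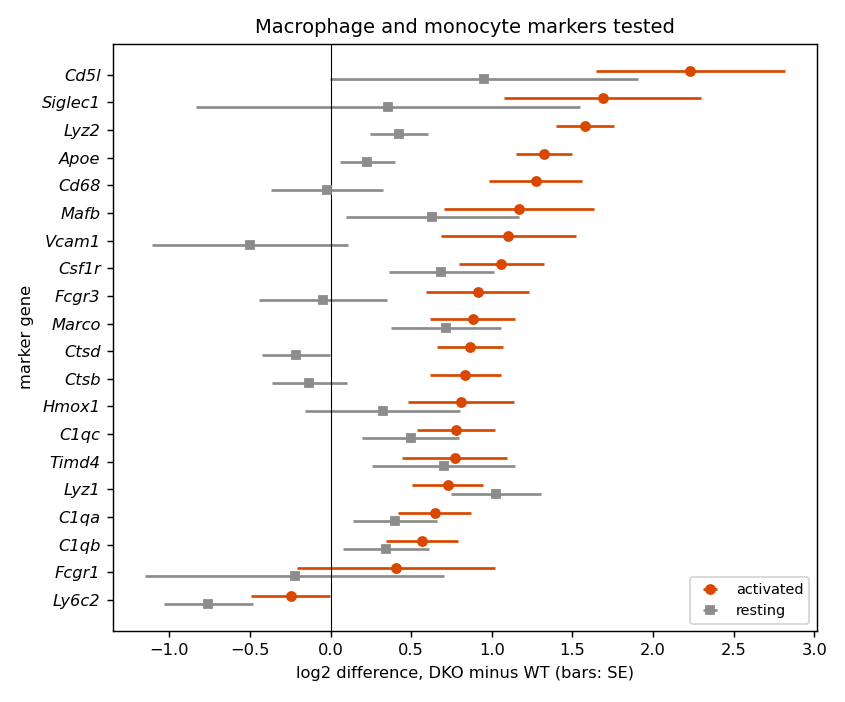
Difference between DKO and WT (horizontal axis, log2, with SE bars) for the 20 tested macrophage and monocyte markers, ordered by the activated difference. Orange circles are activated and grey squares resting libraries, and 19 of the 20 orange circles lie to the right of 0, with Ly6c2 to the left.

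Genes that macrophages and other phagocytes use to degrade and export what they take up were examined as separate lists, some of whose members are also macrophage markers. Of 30 lysosomal genes, all tested, 1 was called higher (Cd63) and 0 lower, 14 had an unadjusted p under 0.05, all higher in DKO, and 27 had a positive difference, with a median of 0.41. Over all genes 0.139% were called higher and 3.04% were higher with such a p. The protease genes Ctsd (0.86 ± 0.20, adjusted p = 0.0946), Ctsl (1.42 ± 0.37, adjusted p = 0.181) and Ctsb (0.84 ± 0.22, adjusted p = 0.200) were among those not called, as were Psap (0.75 ± 0.21), which encodes the precursor of the saposins, and Lamp1 (0.64 ± 0.22), which encodes a lysosomal membrane protein. Summed, the lysosomal genes stood at 7838 and 8225 CPM in WT activated and at 9421 and 12394 CPM in DKO activated libraries. These groups did not overlap, and the second DKO library was again the higher. Without DKO activated replicate 2 the number with an unadjusted p under 0.05 was 6 and the median 0.25, and with 1 of the WT activated libraries left out, whichever it was, the number was 9.

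Of the lipid handling and iron genes edgeR called Apoe alone. Of 19 tested genes of lipid handling and uptake of dying cells 1 was called higher (Apoe), 0 lower, 7 had an unadjusted p under 0.05, all higher in DKO where 3.04% of all genes were, and the median was 0.40. Summed, they stood at 3274 and 3262 CPM in WT activated and at 5605 and 7457 CPM in DKO activated libraries, Apoe included. Mfge8, which encodes a bridging protein between dying cells and phagocytes, stood at 30.0 and 36.7 CPM in WT activated and at 83.5 and 97.8 CPM in DKO activated libraries (1.42 ± 0.32, adjusted p = 0.0606). Nr1h3, the gene of the nuclear oxysterol receptor LXR alpha, stood at 112 and 113 CPM in WT activated and at 184 and 325 CPM in DKO activated libraries (1.15 ± 0.29, adjusted p = 0.142). Of 12 tested iron and haem genes 0 were called by edgeR, 4 had an unadjusted p under 0.05, all higher in DKO, and the median was 0.58. A positive difference was found for 8 of the 12, and the 4 others were Ireb2 (−0.54 ± 0.49), Tfrc (−0.30 ± 0.33), Slc11a2 (−0.29 ± 0.53) and Blvra (−0.07 ± 0.28). DESeq2 called 0 of them and limma-voom 1. The ferritin gene Fth1 stood at 4241 and 3585 CPM in WT activated and at 5097 and 7717 CPM in DKO activated libraries (0.71 ± 0.17, adjusted p = 0.131). The other ferritin gene, Ftl1, stood at 0.56 ± 0.17, and the haem oxygenase gene Hmox1 at 0.81 ± 0.33. Without DKO activated replicate 2 the genes with an unadjusted p under 0.05 numbered 4 in the lipid list (median 0.22) and 1 in the iron list (median 0.29). Fth1 was called with library totals, with limma-voom and without DKO activated replicate 1.

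DC and lymphocyte genes gave a different picture. Of 10 tested pan-DC markers 0 were called by edgeR and 0 had an unadjusted p under 0.05, and their summed level was 42212 and 42875 CPM in WT activated and 41183 and 40927 CPM in DKO activated libraries. The invariant chain gene Cd74 (0.04 ± 0.15) and H2-Ab1 (−0.04 ± 0.15), a class II gene, make up much of this sum. MHC-II is not particular to DCs, so a similar sum does not show a similar share of DCs. Of 10 tested markers of type 1 conventional DCs 0 were called and 0 had an unadjusted p under 0.05, and the lineage factor gene Irf8 stood at 0.12 ± 0.19. Of 6 tested markers of type 2 conventional DCs 0 were called and 1 had such a p in each direction. Sirpa was higher, at 24.8 and 14.7 CPM in WT activated against 47.5 and 57.3 CPM in DKO activated libraries (1.39 ± 0.44, adjusted p = 0.479). Irf4, a transcription factor gene of type 2 DCs, was the lower one, at 164 and 169 CPM in WT activated against 100.2 and 93.1 CPM in DKO activated libraries (−0.78 ± 0.26, adjusted p = 0.620).

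The labels call the cells DCs. The sort on CD11c and MHC-II can be set against these markers, but the share of DCs in a library was not measured. Class II genes were abundant in each library, but several defining DC genes were near the floor. Zbtb46, a factor gene of conventional DCs, had 4 and 6 UMIs in WT activated and 8 and 4 UMIs in DKO activated libraries. Xcr1 of type 1 DCs had 0 to 5 UMIs and Cd209a of type 2 DCs had 0 UMIs in each of the 4 libraries. Itgax, the gene of CD11c itself, stood at 27.4 and 18.3 CPM in WT activated and at 19.3 and 43.0 CPM in DKO activated libraries. B cell markers summed to 14036 and 14520 CPM in WT activated and to 13521 and 12124 CPM in DKO activated libraries, and T cell markers to 1567 and 2537 CPM against 1899 and 2365 CPM. Of 19 B cell and 20 T cell markers tested 0 were called by edgeR, with 0 and 1 at an unadjusted p under 0.05 and medians of 0.01 and 0.05. DESeq2 and limma-voom likewise called 0 of the pan-DC, type 1 DC, type 2 DC, B cell and T cell markers. The B cell sum was thus lower and the macrophage sum higher in both DKO activated libraries, and the part of either in the differences of single genes was not tested.

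**Figure D4:**
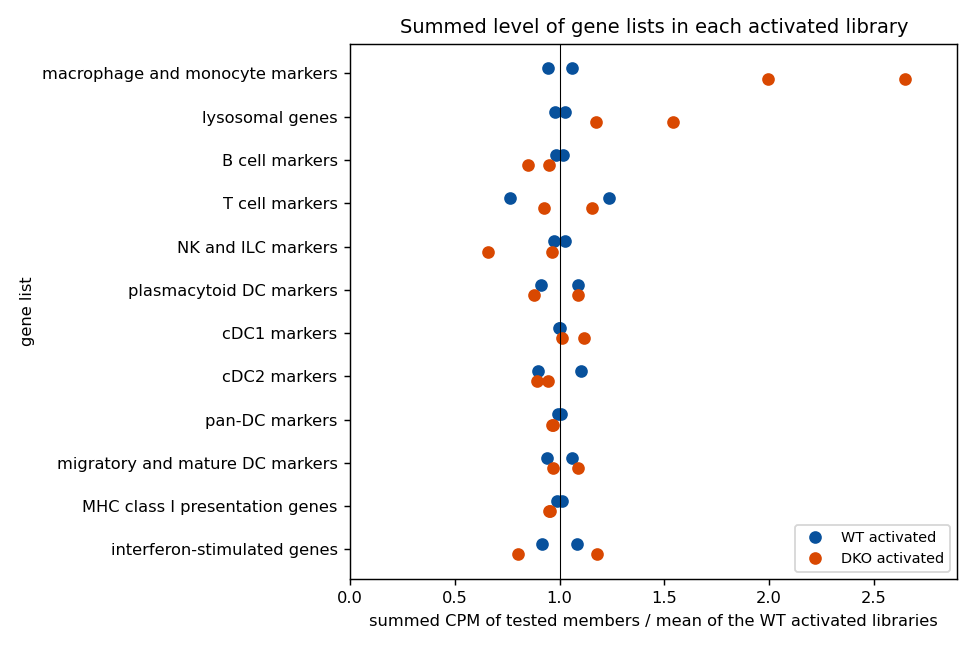
Summed CPM of the tested members of 12 gene lists in each activated library, divided by the mean of the WT activated libraries (horizontal axis, ratio). Blue points are the WT and orange points the DKO activated libraries, and the orange points of the macrophage and monocyte markers lie at 1.995 and 2.65, beyond those of the 11 other lists drawn, which do not include the lipid handling list.

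Among genes of the response to CD40 and of the synapse Icam1 alone was called. Of 28 tested genes of NF-kB and CD40 signalling 0 were called by edgeR and 1 had an unadjusted p under 0.05 in each direction, with a median of −0.14 and Nfkb2 at 0.08 ± 0.18. A positive difference was found for 8 of the 28, and in 11 both DKO libraries lay below both WT libraries, which held for 16.7% of all genes tested, against 3 with both above. DESeq2 called 0 of them and limma-voom 1. Cd40 itself stood at 670 and 693 CPM in WT activated and at 554 and 523 CPM in DKO activated libraries, which did not overlap (−0.34 ± 0.18, adjusted p = 0.9999). Of 11 costimulatory and coinhibitory ligand genes 0 were called and 0 had such a p. Of 28 tested adhesion genes of the synapse Icam1 was the only one called, 3 had an unadjusted p under 0.05 on the higher and 2, Icam1 included, on the lower side, and the median was 0.07. The LFA-1 subunit genes Itgal (−0.12 ± 0.23) and Itgb2 (0.38 ± 0.21) were not called. Icam4, a further gene of the ICAM family, had a difference of 2.52 ± 1.25 at 2.61 and 0 CPM in WT activated and 3.85 and 14.3 CPM in DKO activated libraries, levels at or near the floor in 3 of the 4.

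Antigen presentation, interferon and metabolic lists gave 0 called genes in edgeR. Of 20 class I and 22 class II presentation genes 0 and 2 had an unadjusted p under 0.05, and the medians were −0.02 and 0.03. The class II genes with such a p were Ctsl and Ctsb, which the lysosomal list holds too. Of 49 interferon-stimulated genes 1 had such a p in each direction, Ifitm3 (1.06 ± 0.39) and Trim30a (−0.49 ± 0.21), and the median was −0.05. Summed, they stood at 16151 and 19095 CPM in WT activated and at 14129 and 20740 CPM in DKO activated libraries, so that the DKO libraries lay on opposite sides of both WT libraries. The list had 15 genes lower and 0 higher with an unadjusted p under 0.05 and a median of −0.58 without DKO activated replicate 2. It had 8 higher, 1 gene called, 0 lower and a median of 0.24 without DKO activated replicate 1. Of 58 genes of oxidative phosphorylation 0 had an unadjusted p under 0.05, with a median of −0.05. DESeq2 and limma-voom called 0 genes of these 4 lists with all libraries in the fit. The SE sets what these lists could show: among the 5712 genes that averaged at least 5 on the log2 CPM scale its median was 0.31.

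The 3 remaining called genes lie close together on chromosome 11. Cygb (116645595 to 116654313, minus strand) encodes cytoglobin, a haem protein, St6galnac2 (116675303 to 116694868, minus strand) encodes a sialyltransferase, and BC018473 (116752167 to 116759373, plus strand) is annotated as an antisense transcript. Together they span 113.8 kb. BC018473 had 0 and 3 UMIs in WT activated and 120 and 79 UMIs in DKO activated libraries, a ratio of depth-scaled sums of 87.8 (exact 95% interval of counting error 29.6 to 429). Its fitted difference of 6.37 ± 0.50 (adjusted p = 2.88e-10) depends on the prior count. St6galnac2 had 10 and 9 UMIs in WT activated and 59 and 51 UMIs in DKO activated libraries, a ratio of 7.66 (4.68 to 13.2) with an adjusted p of 2.69e-05. Cygb had 29 and 17 UMIs in WT activated and 54 and 76 UMIs in DKO activated libraries, which are 37.8 and 20.8 CPM against 69.4 and 181 CPM (2.04 ± 0.40, adjusted p = 0.0156). It lost its call with DESeq2, without WT activated replicate 2 (1.67) and without DKO activated replicate 2 (1.25), and stood at 2.63 without DKO activated replicate 1. In none of the 3 did the genotypes overlap.

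The neighbourhood of these 3 genes was then examined. Between Cygb and BC018473 a single further gene was tested, 1810032O08Rik, which stood at −0.23 ± 0.32. Within 1 Mb on either side 33 genes were tested and the 3 were the only ones called, while 4 had an unadjusted p under 0.05 on the higher and 3 on the lower side. The higher ones were the 3 called genes and Sec14l1 (1.13 ± 0.37). The lower ones were Mettl23 (−0.97 ± 0.30), Prpsap1 (−0.79 ± 0.28) and Srsf2 (−0.50 ± 0.23). Icam2 lies on the same chromosome, 10.258 Mb away from Cygb. Of 60 genes tested between Icam2 and Cygb 0 were called by edgeR, with 1 higher and 3 lower at an unadjusted p under 0.05, and of 71 within 5 Mb of Icam2 0 were called, with 3 and 2. Within 5 Mb of Icam1 on chromosome 9, 50 genes were tested and Icam1 was the only one called. All of chromosome 11 held 735 tested genes and no further called gene. Cygb overlaps Prcd and St6galnac2 overlaps 1810032O08Rik on the opposite strand, and the strand setting of the counting is not given.

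The same genotype difference could be looked up in the resting libraries, which the activated comparison does not use except for the shared spread. Of the 15 called genes 13 had the same sign at rest, 9 had an unadjusted p under 0.05 there (5.2% of all genes tested did) and 4 were called, namely Icam1, BC018473, St6galnac2 and Eps8l1. At rest 14 genes were called, 0.162% of those tested, 5 of them higher (0.058%) and 9 lower (0.104%) in DKO, and 11 of them had the same sign after activation. Of the 12 genes called higher after activation 10 also had both resting DKO libraries above both resting WT libraries, which 16.4% of all genes did. The exceptions to the shared sign were Cfb, at −0.46 ± 0.33 at rest, and Rpl35, at 1.16 ± 0.70. BC018473 had 1.41 and 0 CPM in the WT resting libraries, against 230 and 219 CPM in DKO resting libraries, and St6galnac2 at 4.92 and 8.03 CPM against 168 and 125 CPM.

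At rest Lyz2, Apoe, Cfb and C3 were not called. Lyz2 stood at 813 and 726 CPM in WT resting and 930 and 1130 CPM in DKO resting libraries (0.42 ± 0.18, adjusted p = 0.909). Apoe stood at 1352 and 1110 CPM in WT resting and 1480 and 1410 CPM in DKO resting libraries (0.23 ± 0.17, adjusted p = 0.999). In both genes the resting DKO libraries lay above the resting WT ones. Cfb stood at 44.3 and 29.4 CPM in WT resting and 30.8 and 26.0 CPM in DKO resting libraries, and these ranges overlapped. C3 stood at 17.6 and 9.36 CPM in WT resting and 16.6 and 17.3 CPM in DKO resting libraries, which overlapped as well, and the median of the complement genes at rest was 0.24. Macrophage and monocyte markers summed to 3388 and 2991 CPM in WT resting and to 3735 and 3804 CPM in DKO resting libraries, with 4 of 20 higher and 1 lower at an unadjusted p under 0.05 and a median of 0.35. Over all genes 2.14% were higher and 3.06% lower at rest with such a p.

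Whether the genotype difference itself depended on activation was tested as an interaction, and edgeR called 0 of 8616 genes. An unadjusted p under 0.05 was reached by 397, 4.61% of those tested (2.74% with a difference more positive and 1.87% more negative after activation), the smallest adjusted p was 0.156, and DESeq2 and limma-voom called 0 as well. By unadjusted p the 4 leading genes were Cfb at 1.88 ± 0.38, Ccl4 at 4.76 ± 0.99, Lyz2 at 1.16 ± 0.25 and Apoe at 1.09 ± 0.24, with adjusted p of 0.156, 0.156, 0.181 and 0.186. Ccl4, a chemokine gene on the NK cell list, was called lower in DKO at rest (−4.18 ± 0.68) and stood at 0.58 ± 0.66 after activation. C3 had an interaction of 0.88 ± 0.49 (adjusted p = 0.997). Of the 15 genes called after activation 7 had an unadjusted interaction p under 0.05. The 15 were chosen by their activated difference, which is part of the interaction, so the choice itself can raise this number. Among the 7 were St6galnac2 (−1.56 ± 0.63), whose difference was larger at rest, and Rpl35 (−3.92 ± 0.91), which rested on a single WT activated library. With all libraries in the fit no interaction passed the correction, so a larger difference after activation than at rest was not shown for any gene.

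**Figure D5:**
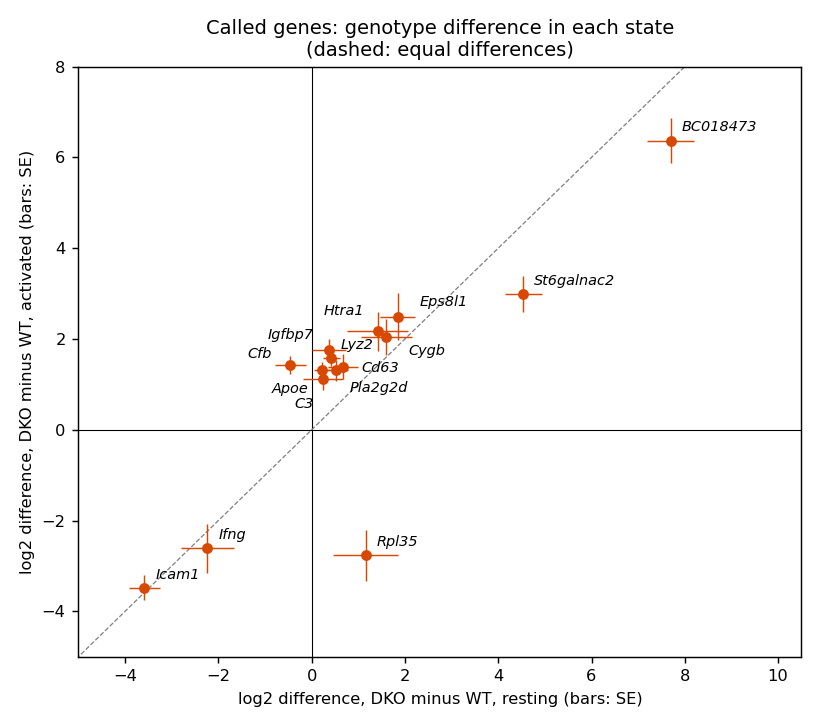
Genotype difference of the 15 called genes at rest (horizontal axis) and after activation (vertical axis), both log2, DKO minus WT, with SE bars, where the dashed line marks equal differences. Cfb and Rpl35 are the 2 genes whose sign differs, and BC018473, St6galnac2, Ifng and Rpl35 lie below the dashed line.

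Of 7384 genes with an adjusted p in the authors' deposited table, 12 passed 0.05 in this comparison, or 0.163%, 11 higher and 1 lower in DKO. All 12 were among the 15 called by edgeR. The 3 others had adjusted p in the authors' deposited table of 0.0514 (Ifng), 0.0974 (C3) and 0.805 (Rpl35). The authors' deposited table gives Lyz2 at 1.52, Apoe at 1.28 and Icam1 at −3.16 on the log2 scale, where edgeR gave 1.58, 1.32 and −3.48. The authors' values lay further from those of edgeR for BC018473 (4.30 against 6.37), Eps8l1 (1.66 against 2.50) and Rpl35 (−1.35 against −2.77).

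Genes that did not pass but differed most, among those that averaged at least 5 on the log2 CPM scale with an unadjusted p under 0.01 and no overlap of the genotypes, were taken as the 8 largest in each direction. Higher in DKO, besides Mfge8 and Ctsl, were Hist1h2bc (1.58 ± 0.41), a histone gene, Rai1 (1.56 ± 0.43), a regulator of transcription, Clec4n (1.55 ± 0.42), which encodes the fungal receptor dectin-2, and Pdlim4 (1.49 ± 0.44), which encodes an actin-associated protein. Il22ra2 (1.42 ± 0.40), the gene of the soluble IL-22 binding protein, and Tnfrsf1a (1.35 ± 0.43), the gene of TNF receptor 1, complete them. Hist1h2bc and Pdlim4 were called without DKO activated replicate 1 and stood at 0.58 and 0.60 without DKO activated replicate 2. Lower in DKO were Caml (−1.33 ± 0.39), which serves membrane insertion of proteins, Neurl3 (−1.22 ± 0.36), Ncdn (−1.19 ± 0.39), Mtfmt (−1.18 ± 0.42), a mitochondrial enzyme gene, Mitd1 (−1.11 ± 0.34), Ttc38 (−1.09 ± 0.40), Bcl2a1b (−1.07 ± 0.26) and Slc35e1 (−1.05 ± 0.37). Bcl2a1b, which encodes a survival protein of the BCL-2 family, stood at 382 and 258 CPM in WT activated and at 195 and 97.8 CPM in DKO activated libraries (adjusted p = 0.111). It has near-identical paralogs, so its counts are uncertain.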

How the data were processed

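Bulk MARS-seq libraries of sorted lymph node cells, labelled as DCs, were analysed from the deposited table of 10412 genes. The submitters' processing notes name DESeq2, HTSeq, TopHat2, cutadapt 1.8.3 and bcl2fastq 2.17.1.14, and build mm10. Annotation, strand setting and UMI rule are not stated there. Per the file headers, 8 columns hold UMI counts, which were deposited without normalization and were the input of every test. The authors also deposited normalized counts, a signal, columns on a transformed log2 scale, and a test statistic, a score, which were not used. The log2 fold changes and adjusted p-values in the table are the authors' own and are quoted only as such, with their sign reversed to read DKO minus WT.

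Genes were filtered with filterByExpr by group (8616 tested, 1796 not), scaled with TMM factors and modelled with edgeR 4.0.16 under R 4.3.3. The model had 1 coefficient per group across the 8 libraries, so 4 residual degrees of freedom remained. The quasi-likelihood F test was adjusted by Benjamini-Hochberg over all genes tested, and SE is the size of the log2 difference divided by the square root of F. Library totals ran from 401984 to 1294777 UMIs. Each library was entered as a sample. Within groups the chi-square per degree of freedom was 2.33 to 2.86, more than counting error alone gives. This excess can be technical and does not show that the libraries came from separate mice. Alternatives used DESeq2 1.42.0 and limma 3.58.1, other scalings and filters, only the 4 libraries compared, and each of the 8 libraries left out. The code was tested on simulated data. Positions and overlaps come from GENCODE M21, which matched 8314 of the 8616 symbols, and Lyz1 and Lyz2 were aligned with Biopython 1.88.

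Named genes are Icam1, Icam2, every called gene, the 8 largest uncalled differences in each direction, and from each of 34 lists up to 3 called members or the most abundant tested member. Other genes were named after their values were seen. The comparison, lists and tests were chosen with earlier results of these data known. The labels name no batch.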

Additional observations from a re-analysis of the deposited data

How the results depend on the processing

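The count of genes called between activated DKO and WT libraries was 15, and it was 8 with DESeq2 and 23 with limma-voom and quality weights. Leaving out each library in turn gave 6 to 36, with 6 without WT activated replicate 2, 8 without DKO activated replicate 2 and 36 without DKO activated replicate 1. The other alternatives gave 15 to 17. At rest the count of 14 was 4 with DESeq2, 8 with library totals, 8 with limma-voom and 9 with only the 4 libraries compared, and it ranged from 3 to 13 over the fits that leave out a library. The interaction count of 0 ranged from 0 to 2 over the latter fits. The causes were not tested. Icam1 was called in all 15 alternatives, between −3.54 and −3.44, and Icam2 in none, between 0.13 and 0.63. BC018473, Lyz2, Apoe, St6galnac2 and Igfbp7 were called in all 15 as well, while Rpl35 lost its call in 7. Over the named genes 746 pairings of gene and alternative stayed on their side of the threshold, 38 lost a call, 11 gained one and 0 changed sign while called in either setting. No scaling moved the median of all genes by over 0.1. No paired analysis was possible because the labels give groups no shared replicate numbers. Depth limits what could be seen: DKO activated replicate 2 held 471235 UMIs, and a gene at the floor there stands at 7.16 CPM.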

Other observations

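Chemokine genes of activated DCs and phagocytes were not called by edgeR or DESeq2 in the activated comparison, and limma-voom called 1, yet 4 of 23 tested chemokine and receptor genes were higher in DKO with an unadjusted p under 0.05 and 1 was lower, against 3.04% and 1.88% of all genes. The list's median was −0.10, with a positive difference for 9 of the 23. Ccl22, which encodes a chemokine of mature DCs, stood at 404 and 457 CPM in WT activated and at 630 and 907 CPM in DKO activated libraries (0.83 ± 0.21, adjusted p = 0.142). Cxcl16 (1.09 ± 0.37), Ccr1 (1.87 ± 0.65) and Ccl8 (0.45 ± 0.22) were the other 3 on the higher side, and Xcl1 the lower one. Of 16 tested markers of migratory and mature DCs 0 were called by edgeR or DESeq2 and 1 by limma-voom. Ccl22, Socs2 (1.16 ± 0.42) and the actin-bundling gene Fscn1 (0.76 ± 0.28) had an unadjusted p under 0.05, and the median of the list was 0.10. All genes named in this paragraph were chosen after their values were seen.

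Of 24 tested proliferation genes 0 were called by edgeR, DESeq2 or limma-voom in the activated comparison. An unadjusted p under 0.05 was reached by 3 on the higher side after activation, where 3.04% of all genes did so, with a median of 0.41. At rest it was reached by 6 on the lower side, where 3.06% of all genes did so, with a median of −0.39. For 10 of the 24 the unadjusted interaction p was under 0.05, all with a more positive difference after activation, where 2.74% of all genes did so. Of the 24, 21 were higher in DKO activated replicate 2 than in replicate 1, while 50.9% of all genes were. Without DKO activated replicate 2, 0 of the 24 were higher with such a p and the median was −0.05, and without DKO activated replicate 1 the numbers were 6 and 0.76.

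The Y-linked gene Kdm5d had 2 UMIs in each WT activated library and 14 and 3 UMIs in the DKO activated libraries. It was not called there (2.35 ± 0.94, edgeR adjusted p = 0.876). At rest it had 2 and 0 UMIs in WT and 6 and 23 UMIs in DKO libraries and was called. The sample values used here do not give the sex of the mice, and the part of sex was not tested. Cxcr2, the only tested marker on the granulocyte and mast cell list, stood at 28.7 and 3.67 CPM in WT activated and at 45.0 and 66.8 CPM in DKO activated libraries (1.77 ± 0.57, adjusted p = 0.520). Of the untested members, S100a9 had 1 and 3 UMIs in WT activated and 6 and 22 UMIs in DKO activated libraries. Cpa3 had 0 and 0 against 3 and 6 UMIs, and Csf3r went the other way with 2 and 3 against 1 and 0 UMIs.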
